A study of Mus musculus with 108 samples.

Results

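Chromatin states were described at 43 mouse genes of fatty acid oxidation and ketogenesis, of 26089 genes with a curated RefSeq transcript. The genes were chosen by name for their known roles, and earlier results of these data were known when they were chosen. They range from the nuclear receptor Ppara to the enzymes of the mitochondrial and peroxisomal pathways and the proteins of lipid droplets. At each gene the state was read in the 200-base bin that holds the transcription start site (TSS), in the 21 bins that cover TSS +/- 2 kb, and over the gene body. Of the enzymes of ketone body metabolism the set holds only Acat1 and Bdh1, so it is chiefly a set of oxidation genes.

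The study profiled H3K4me3, H3K27me3, H3K27ac and H3K4me1 by ChIP-seq on chromatin from formalin-fixed, paraffin-embedded livers of inbred C57BL/6 female mice. The group SD 3m (8 mice, standard diet, 3 months of age) was compared with SD 12m (8 mice, standard diet, 12 months) and with CR 12m (9 mice, 12 months, fed 30% fewer calories from the age of 3 months), and a group of 6-month mice was not analysed here. The labels name no mutation or drug in any group. The libraries of a group were merged before the states were called, so each group is represented by 1 segmentation and no spread between mice can be given. Not every mouse gave a library of every mark, and CR 12m had 5 H3K4me3 libraries from its 9 mice.

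Fatty acid oxidation shortens fatty acids by repeated removal of acetyl-CoA. Long chains are activated to acyl-CoA, carried into mitochondria by the carnitine shuttle and degraded in a cycle of dehydrogenation, hydration, dehydrogenation and thiolysis, while peroxisomes handle very long and branched chains. In the liver the pathway supplies energy and ketone bodies during fasting, and many of its genes are targets of Ppara, which binds DNA together with the retinoid X receptor.

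The states are numbered 1 to 8 and come from the combination of marks in a bin. State 1 (active TSS) carries H3K4me3 with H3K27ac, and state 2 (flanking TSS) carries H3K4me1 as well. State 3 (active enhancer 1) carries H3K27ac with H3K4me1, state 4 (active enhancer 2) mainly H3K27ac, and state 5 (poised enhancer) mainly H3K4me1. State 6 is the Polycomb state with H3K27me3. State 7 has weak H3K4me3 and minimal H3K27me3 over repeats and lamina-associated domains, and state 8 (quiescent) has none of the 4 marks. States 1 to 5 are called active below. Wherever 3 values are given in a row, they belong to SD 3m, SD 12m and CR 12m in this order.

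The merged libraries differed in number between groups. The 3 groups had 7, 8 and 5 libraries of H3K4me3, 7, 8 and 6 of H3K27me3, 8, 7 and 9 of H3K27ac, and 8, 6 and 9 of H3K4me1, and the read depth behind a state is unknown. A difference between groups and a difference in the depth of a mark cannot be told apart in these files. Over the whole genome, states 1 and 2 together covered 1.54%, 0.788% and 0.662% of the bins, whereas states 1 to 5 covered 22.5%, 22.6% and 22.8%. The TSS bins of 8 of 8 hepatocyte markers (Alb, Ttr, Apoa1, Apob, Serpinc1, Cps1, Tat and Hnf4a) were in active states in every group. Of 8 markers of other cells, Ucp1, Clec4f and Neurod1 were in state 6 in all 3 groups and Adipoq was in state 3 in all 3. Stab2 was in state 4, 7 and 4, Myh6 in state 8, 6 and 6, and Ckm and Krt19 each in state 8, 8 and 4, so that 2, 1 and 4 of the 8 were active. Their part in the results was not tested.

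All 43 oxidation genes had active chromatin at the start in every group. For the SD 3m mice the TSS bin was in state 1 or 2 at 36 genes (83.7%, Wilson 95% interval 70.0 to 91.9%). The older standard diet group had 32 such genes (74.4%, 59.8 to 85.1%), and the restricted group 29 (67.4%, 52.5 to 79.5%). The remaining TSS bins were in states 3 and 4, and none was in states 5 to 8. These intervals cover counting error over genes only. Of the 12817 protein-coding genes that were active at the TSS in SD 3m, 73.8%, 63.9% and 56.3% had the TSS bin in state 1 or 2. Over all 20923 protein-coding genes the shares were 45.2%, 39.3% and 34.7%. Each of the 43 genes also had all of its 21 bins within 2 kb in active states in the 3 groups, as did 49.8% of the 20923 protein-coding genes. Conversely, 42.2% of the protein-coding genes had the TSS bin in states 6 to 8 in at least 1 group, and 0 of the 43 did.

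**Figure D1:**
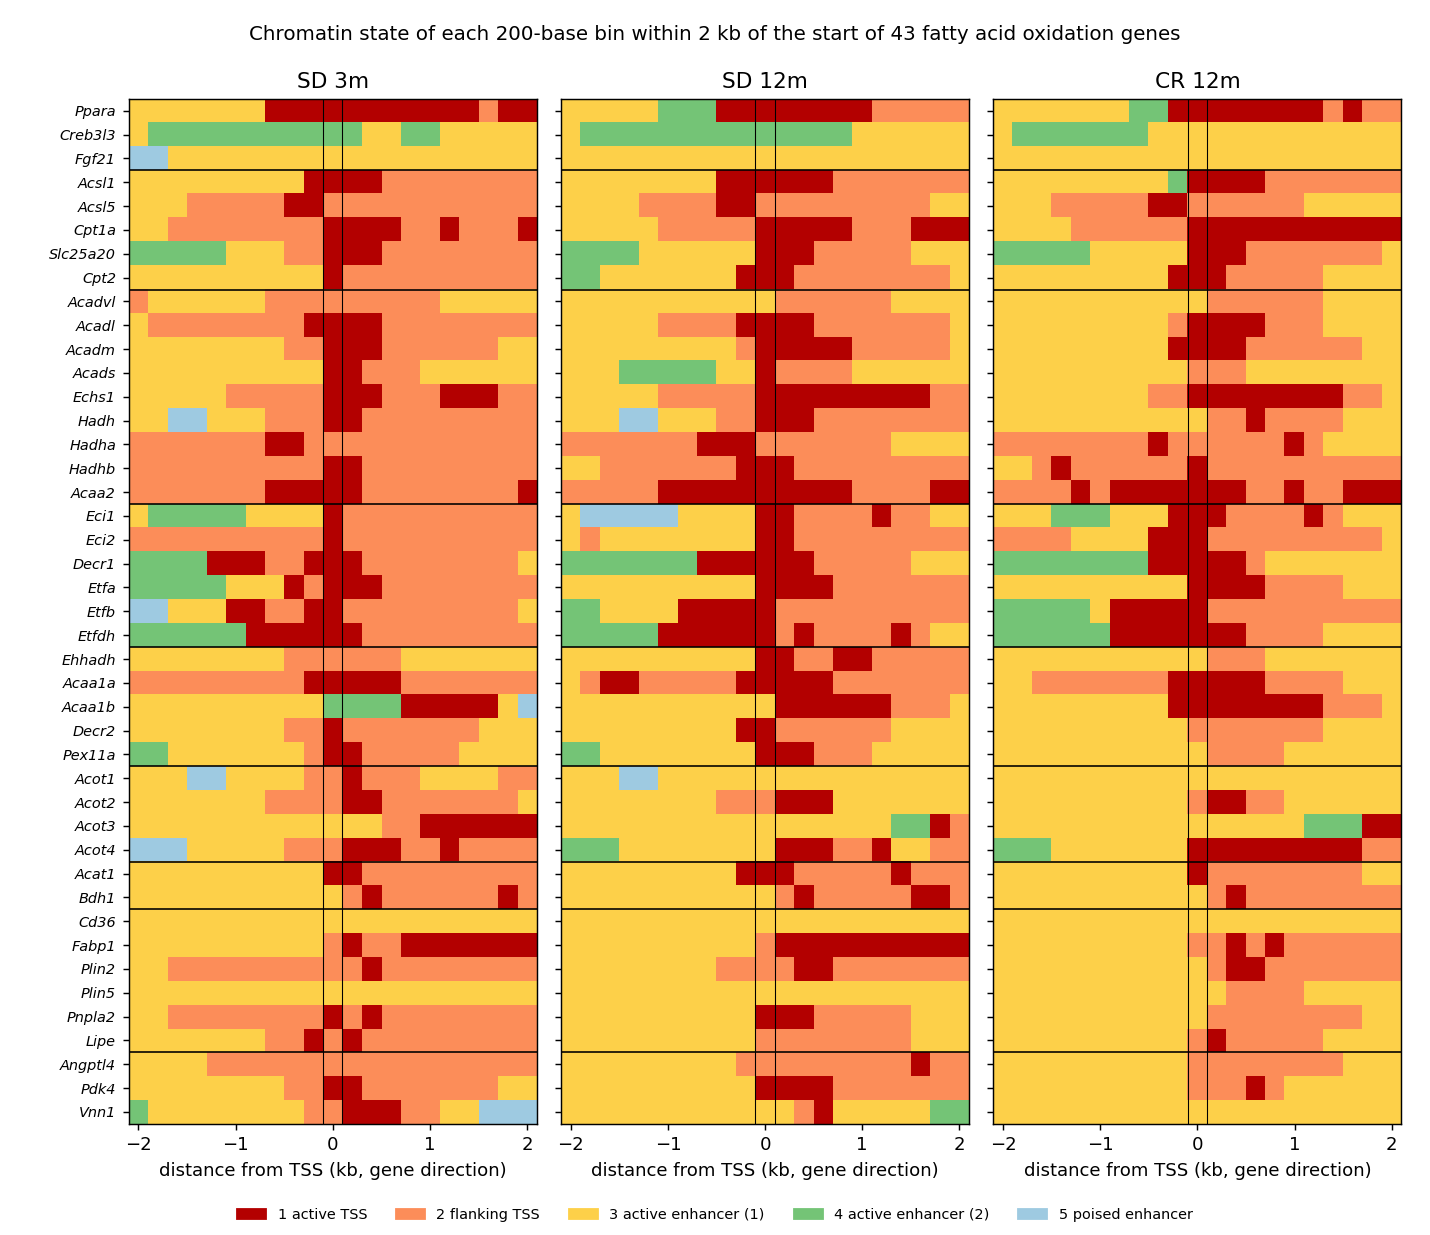
Chromatin state of each 200-base bin from 2 kb before to 2 kb after the TSS (x axis, kb in the direction of the gene) of the 43 genes (rows, ordered by role, black lines between roles) in SD 3m, SD 12m and CR 12m, with the TSS bin between the vertical lines. Only states 1 to 5 occur, and the red and orange bins of states 1 and 2 lie mostly after the start.

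The same state was found at the TSS bin in all 3 groups for 29 genes (67.4%), beside 57.7% of the 10418 protein-coding genes that were active in all 21 bins. State 1 was shared by 18 of them: Ppara, Acsl1, Cpt1a, Slc25a20, Cpt2, Acadl, Acadm, Echs1, Hadhb, Acaa2, Eci1, Eci2, Decr1, Etfa, Etfb, Etfdh, Acaa1a and Acat1. Acsl5, Hadha, Acot2, Fabp1, Lipe and Angptl4 were in state 2 in all 3 groups, and Fgf21, Acot3, Bdh1, Cd36 and Plin5 in state 3. The carnitine shuttle, the electron transfer proteins and most of the mitochondrial spiral thus had an active TSS state at both ages and on both diets.

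Promoter sequence differed between these classes. The sequences below are the 250 bases before the TSS in mm10 (GRCm38.p6), 5′ to 3′ on the strand of the gene, with every CpG in capitals. They show a start in state 1 in all 3 groups (Ppara, Cpt1a), a start in state 2 in all 3 (Fabp1) and starts whose state differed between groups (Ehhadh, Acaa1b, Vnn1). They lie at chr15:85735314-85735563 on the plus strand (Ppara), chr19:3323051-3323300 on the plus strand (Cpt1a), chr6:71199629-71199878 on the plus strand (Fabp1), chr16:21787835-21788084 on the minus strand (Ehhadh), chr9:119157094-119157343 on the minus strand (Acaa1b) and chr10:23894438-23894687 on the plus strand (Vnn1). Each ends at the base before the annotated first exon of its gene.
Ppara: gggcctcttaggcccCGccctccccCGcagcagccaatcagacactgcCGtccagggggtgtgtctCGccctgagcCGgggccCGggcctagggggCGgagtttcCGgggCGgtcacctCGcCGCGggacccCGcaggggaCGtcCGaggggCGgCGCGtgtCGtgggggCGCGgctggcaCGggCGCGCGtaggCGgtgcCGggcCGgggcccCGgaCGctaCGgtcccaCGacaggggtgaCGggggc
Cpt1a: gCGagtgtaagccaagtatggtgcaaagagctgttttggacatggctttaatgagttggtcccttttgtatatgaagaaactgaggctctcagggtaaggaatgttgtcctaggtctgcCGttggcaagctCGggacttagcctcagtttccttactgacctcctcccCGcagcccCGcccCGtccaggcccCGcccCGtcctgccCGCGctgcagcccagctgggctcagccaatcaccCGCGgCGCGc
Fabp1: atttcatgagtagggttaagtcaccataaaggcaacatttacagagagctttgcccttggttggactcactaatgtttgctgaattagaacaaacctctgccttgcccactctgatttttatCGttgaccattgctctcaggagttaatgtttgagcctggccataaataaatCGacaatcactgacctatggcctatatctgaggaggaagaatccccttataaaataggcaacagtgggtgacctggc
Ehhadh: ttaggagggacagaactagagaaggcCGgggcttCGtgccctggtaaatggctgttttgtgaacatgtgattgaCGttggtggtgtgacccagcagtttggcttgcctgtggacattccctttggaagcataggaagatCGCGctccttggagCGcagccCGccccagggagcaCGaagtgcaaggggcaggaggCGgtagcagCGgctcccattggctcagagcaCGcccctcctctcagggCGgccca
Acaa1b: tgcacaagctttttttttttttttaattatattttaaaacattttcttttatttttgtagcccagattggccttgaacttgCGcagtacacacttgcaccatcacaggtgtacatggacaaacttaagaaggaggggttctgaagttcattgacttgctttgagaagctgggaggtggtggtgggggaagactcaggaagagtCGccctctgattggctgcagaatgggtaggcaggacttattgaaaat
Vnn1: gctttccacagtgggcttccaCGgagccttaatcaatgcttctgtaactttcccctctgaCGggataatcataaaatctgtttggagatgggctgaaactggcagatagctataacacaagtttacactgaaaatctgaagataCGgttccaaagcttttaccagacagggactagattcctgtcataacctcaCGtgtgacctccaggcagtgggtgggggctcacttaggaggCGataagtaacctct

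These promoters held 33 CpG sites at Ppara, 14 at Cpt1a and 12 at Ehhadh, against 5 at Vnn1, 2 at Acaa1b and 2 at Fabp1. Over the 43 genes the median was 11 CpG sites (range 1 to 33), beside 8 over all genes and 10 over protein-coding genes. The 18 genes with state 1 in all 3 groups had a median of 14 sites and none had fewer than 8. The 6 genes with state 2 in all 3 groups had a median of 9 (2 to 18), and the 6 genes in states 3 or 4 in all 3 groups a median of 5.5 (1 to 11). The 10 genes whose TSS bin was in states 1 or 2 in some groups and in states 3 or 4 in others had a median of 7.5 sites (2 to 12). The ranges overlapped between the classes, and this is a description across genes with no test.

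**Figure D2:**
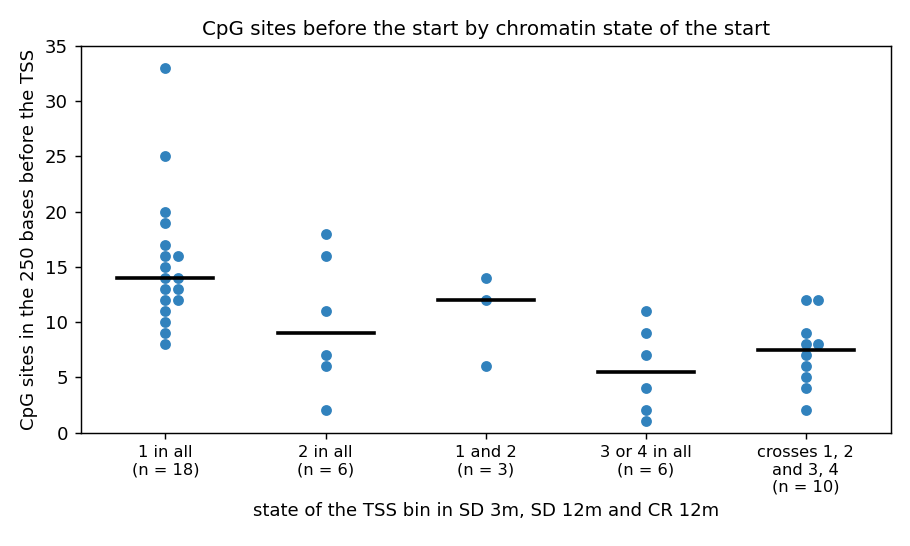
CpG sites in the 250 bases before the TSS (y axis, count) of the 43 genes, grouped by the states of the TSS bin in SD 3m, SD 12m and CR 12m (x axis), with 1 point per gene and a line at the median. All 18 genes of the left column have at least 8 sites, while the 6 genes in states 3 or 4 in all groups have 1 to 11.

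A sequence that the Ppara heterodimer is known to bind, 2 copies of AGGTCA separated by 1 base, was searched on both strands from 250 bases before to 50 bases after each TSS. With up to 2 mismatches over the 12 compared positions it was found at 7 of the 43 genes (16.3%), beside 3.56% of all genes and 3.31% of protein-coding genes. The 7 genes were Slc25a20, Echs1, Etfa, Acot4, Fabp1, Plin2 and Vnn1. With 1 mismatch only Fabp1 matched (2.33%, beside 0.491% and 0.464%), as AGGCCATAGGTCA on the opposite strand, starting 67 bases before the TSS and seen as tgacctatggcct in the Fabp1 sequence above. In Vnn1 the match AGGTCACACGTGA also lay on the opposite strand. A match states only that these letters are present, and no binding was measured.

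Between SD 3m and SD 12m the state of the TSS bin differed at 6 of the 43 genes (14.0%): Acadvl, Acot1, Acot4, Vnn1, Ehhadh and Acaa1b. This share stood beside 32.6% of all 26089 genes, 31.9% of the 12817 protein-coding genes that were active at the TSS in SD 3m, and 28.1% of the 10418 that were active in all 21 bins in the 3 groups. The count came to 10 when the most frequent state of the TSS bin and its neighbours was used, and to 3 without the Acaa1 and Acot paralogs. The background shares refer to the single TSS bin, so the count of 10 has no background under its own rule. Acadvl, Acot1, Acot4 and Vnn1, 4 of the 36 genes with a TSS state at 3 months, had state 3 instead at 12 months, whereas 16.0% of the protein-coding genes with a TSS state had left it. For 0 of the 43 genes was the direction opposite.

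More starts differed in CR 12m. Against SD 3m, 14 of the 43 genes had another state (32.6%), beside 34.7% of all genes, 39.0% of the active protein-coding genes and 35.4% of those active in all 21 bins. At 8 of the 36 genes a TSS state had given way to state 3 (Acadvl, Hadh, Ehhadh, Pex11a, Acot1, Plin2, Pnpla2 and Vnn1), with 25.9% as background, and Acaa1b was the only gene with the opposite difference. Between the 2 diets at 12 months, 11 of 43 genes differed (25.6%), beside 26.7%, 28.3% and 25.9% for the same 3 backgrounds. Of the 32 genes with a TSS state in SD 12m, 5 had state 3 under restriction (Hadh, Ehhadh, Pex11a, Plin2 and Pnpla2), with 17.3% as background. Acaa1b and Acot4 showed the reverse, state 3 on the standard diet and state 1 under restriction. The shares of CR 12m against either group were therefore near those of other active genes. The 3 comparisons share segmentations, and CR 12m had the fewest H3K4me3 libraries. With states 1 and 2 joined into a class and states 3 and 4 into another, the counts for CR 12m were 9 against SD 3m and 7 against SD 12m. No background was computed for these joined classes.

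By pattern, CR 12m alone differed at 8 genes (Creb3l3, Acads, Decr2, Pdk4, Hadh, Pex11a, Pnpla2 and Plin2), SD 3m alone at 3 (Acadvl, Acot1 and Vnn1) and SD 12m alone at 0. Ehhadh, Acaa1b and Acot4 had a different state in each group. Of the protein-coding genes active in all 21 bins, CR 12m alone differed at 14.2%, SD 3m alone at 16.5% and SD 12m alone at 6.90%, and all 3 differed at 4.79%. The members' shares were 18.6%, 6.98%, 0% and 6.98%. Acads, Decr2 and Pdk4 stayed within the TSS states, from state 1 in both standard diet groups to state 2 in CR 12m.

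The TSS states also covered less of the flanks. Of the 903 bins within 2 kb of the 43 starts, 58.5%, 47.4% and 41.0% were in states 1 and 2. Over the 12817 active genes the shares were 52.3%, 33.8% and 29.7%, and over those active in all 21 bins 57.3%, 37.2% and 32.9%. Against the latter the set was level at 3 months and higher in both 12-month groups. The median gene of the set had 13, 11 and 8 such bins of 21, and the median active gene 12, 7 and 6. Fewer bins were in states 1 and 2 in SD 12m than in SD 3m at 26 of the 43 genes, beside 74.9% of the active genes and 79.1% of those active in all 21 bins, with 13 genes equal and 4 with more. In CR 12m against SD 3m, 34 genes had fewer, 7 equal and 2 more, beside 78.4% and 82.5% with fewer. In CR 12m against SD 12m, 23 genes had fewer, 14 equal and 6 more, beside 46.8% and 49.1% with fewer.

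State 3 often stood at 12 months where state 2 had stood at 3 months. This pair made up 107 of the 236 window bins that differed between SD 12m and SD 3m (45.3%) and 151 of the 286 that differed between CR 12m and SD 3m (52.8%). The set had 402 state 2 bins at 3 months. By 12 months on standard diet 249 of them (61.9%) had the same state and 107 (26.6%) state 3, and with restriction 210 (52.2%) and 151 (37.6%). Over the active genes the shares with state 3 were 41.9% and 48.8%. Of 126 state 1 bins at 3 months, 101 (80.2%) had state 1 in the older standard diet group and 80 (63.5%) in the restricted group. These shares were 76.0% and 65.6% over the active genes, and 80.4% and 69.9% over those active in all 21 bins.

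The TSS states lay mainly inside the genes. They covered 79.5%, 72.1% and 62.3% of the 10 bins after the start, and 34.9%, 20.0% and 17.0% of the 10 bins before it. For the active genes the shares after the start were 63.9%, 44.3% and 39.9%, and before it 38.5%, 20.2% and 16.8%. For the genes active in all 21 bins they were 69.6%, 48.6% and 44.0% after the start, and 42.8%, 22.7% and 18.9% before it. The oxidation genes therefore stood above both backgrounds after the start and below or close to them before it. At 0.4 kb after the start 86.0% of the 43 genes were in state 1 or 2 in each group. At 2 kb after the start the shares were 62.8%, 46.5% and 25.6%. For the active genes the shares were 77.7%, 71.9% and 67.5% at 0.4 kb, and 41.5%, 12.9% and 10.1% at 2 kb, so they also fell downstream.

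**Figure D3:**
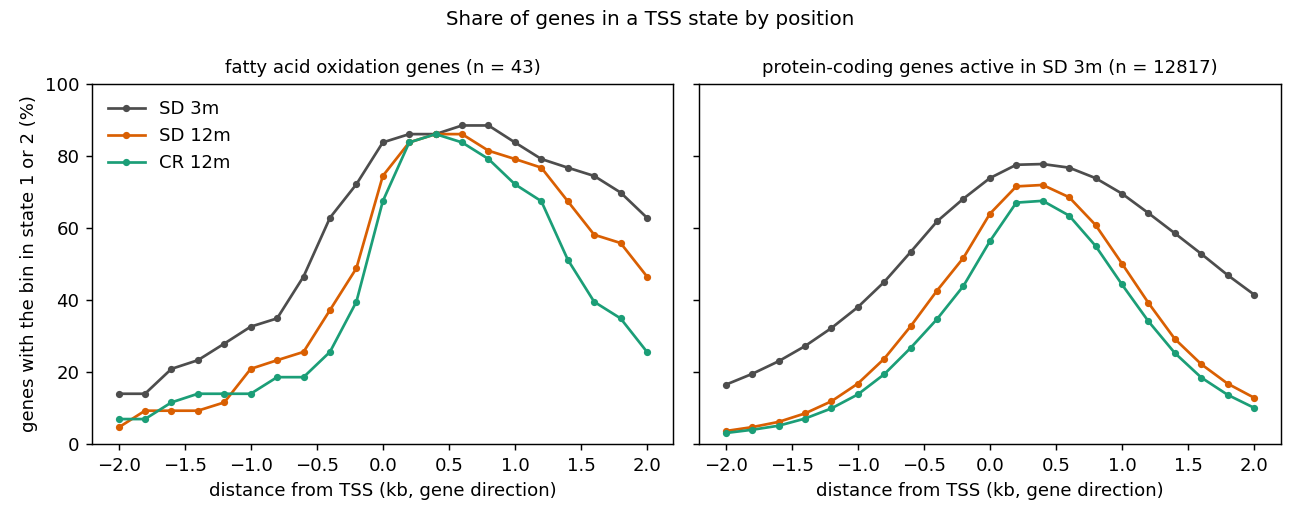
Percent of genes whose bin was in state 1 or 2 (y axis) by distance from the TSS (x axis, kb in the direction of the gene) for the 43 fatty acid oxidation genes (left) and the 12817 active protein-coding genes (right), with 1 line per group. The lines of the 43 genes meet at 86.0% at 0.4 kb and part again downstream, to 62.8%, 46.5% and 25.6% at 2 kb. Those of the active genes reach 41.5%, 12.9% and 10.1% at 2 kb.

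Among the regulators, Ppara (chr15:85735564-85806851, plus strand), the nuclear receptor that drives the program, had state 1 at the TSS in every group. Its TSS states covered 14, 13 and 12 of the 21 bins, always with all 10 bins after the start. Its whole body of 71.3 kb was active in every group, and state 5 took 17.0%, 4.19% and 0% of it. Creb3l3, a fasting-induced transcription factor of hepatocytes, had none of its 21 bins within 2 kb in states 1 and 2 in any group, and its TSS bin was in state 4, 4 and 3. Fgf21 (chr7:45613890-45615490, minus strand), the fasting hormone secreted by the liver, likewise had 0 of 21 bins in states 1 and 2 in each group and state 3 at the TSS. Around the start of the longest transcript Ppara thus carried TSS states in every group, and Creb3l3 and Fgf21 in none. Creb3l3 has 2 curated start sites, and its body did hold TSS states. State 1 took 5.41%, 6.76% and 5.41% of the Creb3l3 body, and state 2 took 12.2%, 8.11% and 8.11%.

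The genes of activation and mitochondrial import kept their TSS state in all groups. Cpt1a (chr19:3323301-3385733, plus strand), which forms acylcarnitines and is the main point of control of the pathway, had 19, 16 and 17 bins in states 1 and 2. State 1 made up 6, 8 and 11 of these bins. Its state 1 bins were thus most numerous in CR 12m, although the TSS states as a whole were widest in SD 3m. Acsl1 and Acsl5, which activate long-chain fatty acids, had 12, 13 and 11 bins and 18, 15 and 13 bins. The carnitine carrier Slc25a20 had 13, 8 and 10 bins, and Cpt2, which releases acyl-CoA inside the mitochondrion, 11, 11 and 8.

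In the mitochondrial spiral 73.5%, 65.1% and 54.5% of the bins around the 9 starts were in states 1 and 2. Acadl, the long-chain acyl-CoA dehydrogenase, had 20, 15 and 8 such bins, the greatest difference of any gene between SD 3m and CR 12m, and its TSS bin remained in state 1. Acadm (chr3:153922353-153944643, minus strand), the medium-chain enzyme, had 11, 11 and 10 bins. Acadvl, the very long-chain enzyme, had 10, 6 and 6 bins, and its TSS bin was in state 2 in SD 3m and in state 3 at 12 months on both diets. Acads, the short-chain enzyme, had 5, 5 and 3 bins and a TSS in state 1, 1 and 2.

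Hadha (chr5:30119423-30154980, minus strand) and Hadhb, the subunits of the trifunctional protein, start 273 bases apart on opposite strands and share most of the window. Hadha had 21, 17 and 17 bins in states 1 and 2, and Hadhb 21, 19 and 19. Their shared start region was therefore among the widest in each group. Hadh, the hydroxyacyl-CoA dehydrogenase for shorter chains, had 14, 13 and 7 bins, with the TSS bin in state 1 in both standard diet groups and in state 3 in CR 12m. The hydratase Echs1 had 16, 16 and 12 bins. The thiolase Acaa2 had 21 of 21 in every group, and its start lies 757 bases from that of the small RNA gene Scarna17.

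**Figure D4:**
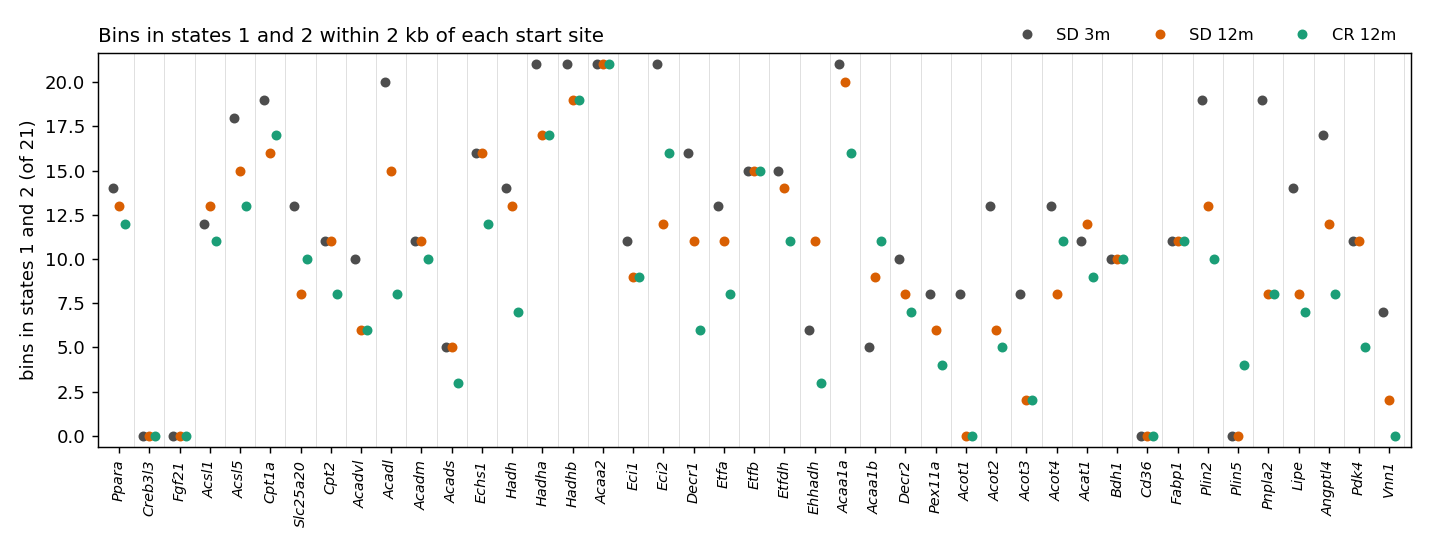
Number of the 21 bins within 2 kb of the TSS in states 1 and 2 (y axis) for each of the 43 genes (x axis, ordered by role), with 1 point per group. SD 3m is the highest or shares the highest value at most genes, Acadl runs from 20 to 8, and Acaa1b runs the other way from 5 to 11.

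The auxiliary enzymes, which bring the bonds of unsaturated fatty acids into the form the spiral can use, and the electron transfer proteins all had state 1 at the TSS in the 3 groups. Eci2, an enoyl-CoA isomerase, had 21, 12 and 16 bins in states 1 and 2, so that CR 12m stood between the standard diet groups. The dienoyl-CoA reductase Decr1 had 16, 11 and 6. Etfb, the beta subunit of the electron transfer flavoprotein, had 15 in every group, while Etfa, the alpha subunit, had 13, 11 and 8 and the dehydrogenase Etfdh 15, 14 and 11. The isomerase Eci1 had 11, 9 and 9.

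The peroxisomal genes went in different directions. Ehhadh (chr16:21761285-21787834, minus strand), the peroxisomal bifunctional enzyme and a classical Ppara target, had 6, 11 and 3 bins in states 1 and 2. Its TSS bin was in state 2, 1 and 3, so the gene had the largest excess of SD 12m over both of the others. Acaa1b (chr9:119148043-119157093, minus strand), a peroxisomal thiolase, had 5, 9 and 11 bins and a TSS in state 4, 3 and 1. Its paralog Acaa1a, which lies on the same chromosome, had 21, 20 and 16 bins and state 1 throughout. The paralogs therefore ran in opposite directions from SD 3m to CR 12m. Within 2 kb of the start, 1.50% of the 50-base words of each of them occurred elsewhere in the genome.

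Decr2, the peroxisomal dienoyl-CoA reductase, had 10, 8 and 7 bins. Pex11a, which promotes division of peroxisomes, had 8, 6 and 4 bins and a TSS in state 1, 1 and 3. The start of Wdr93 lies 18 bases from that of Pex11a, so that the bins belong to both genes.

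The acyl-CoA thioesterases Acot1 to Acot4, which release free fatty acids from acyl-CoA and stand in a row on chromosome 12, had a wider gap between SD 3m and SD 12m than any other class of the set. States 1 and 2 held 50.0%, 19.0% and 21.4% of their 84 bins. Acot1 had 8, 0 and 0 such bins. The others had 13, 6 and 5 bins (Acot2), 8, 2 and 2 bins (Acot3) and 13, 8 and 11 bins (Acot4). At the TSS itself only Acot1 (state 2, 3 and 3) and Acot4 (state 2, 3 and 1) differed between groups. Part of this cluster is repeated sequence, and 23.3% of the 50-base words around Acot4, 13.7% around Acot1 and 9.05% around Acot3 occurred elsewhere in the genome.

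Of the ketone body genes, Bdh1 (chr16:31422297-31458901, plus strand), which interconverts acetoacetate and hydroxybutyrate, had 10 bins in states 1 and 2 in each group, all of them after the start, and a TSS bin in state 3. Acat1, which condenses acetyl-CoA and also cleaves acetoacetyl-CoA, had 11, 12 and 9 bins and state 1 at the TSS. These starts differed little between the groups.

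Genes of fatty acid uptake, binding and droplets ranged from 0 to 19 bins in states 1 and 2 in SD 3m. Cd36 (chr5:17781690-17888959, minus strand), a fatty acid receptor, had all 21 bins in state 3 in all groups. It was the only gene of the 43 with no difference in any bin of this window. Cd36 has 3 curated start sites, and the window is centred on that of its longest transcript. Over the Cd36 body, state 2 took 5.77%, 0.559% and 0.559% of the bins. Fabp1, the abundant fatty acid binding protein of hepatocytes, had 11 bins in states 1 and 2 in each group. The droplet protein Plin2 had 19, 13 and 10 bins and a TSS in state 2, 2 and 3, whereas Plin5, which couples droplets to mitochondria, had 0, 0 and 4. Pnpla2, the lipase that starts triglyceride breakdown, had 19, 8 and 8 bins and a TSS in state 1, 1 and 3, and Lipe, the hormone-sensitive lipase, 14, 8 and 7. Pnpla2 thus showed the greatest difference of any gene between SD 3m and SD 12m.

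The other fasting-induced targets had narrower TSS domains in CR 12m than in SD 3m. Angptl4, an inhibitor of lipoprotein lipase, had 17, 12 and 8 bins. Pdk4 (chr6:5483351-5496278, minus strand), the kinase that shuts off pyruvate oxidation, had 11, 11 and 5, and its TSS bin was in state 1, 1 and 2. Vnn1, a pantetheinase, had 7, 2 and 0 bins and a TSS in state 2, 3 and 3. All 3 were lowest in CR 12m.

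Active states covered nearly the whole body of these genes, and more of it in CR 12m. The mean share of the body in states 1 to 5 was 92.3%, 94.7% and 98.3%, with lowest values of 51.9%, 60.0% and 74.5% and a median of 100% in each group. The whole body was active at 26, 32 and 37 of the 43 genes. Among the active protein-coding genes the shares were 46.0%, 52.5% and 57.4%, and among those active in all 21 bins 53.2%, 60.8% and 66.1%. The 43 genes are shorter, with a median length of 14.5 kb against 20.2 kb for the active genes. Of the 5063 body bins, none was in states 6 and 7 in any group, and the inactive bins were all in state 8.

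The share in CR 12m was higher than in SD 3m at 16 genes, equal at 27 and lower at 0, beside 32.6% of the active genes with a higher and 21.6% with a lower share. In SD 12m against SD 3m, 11 genes were higher and 4 lower (29.0% and 25.3% of the active genes), and in CR 12m against SD 12m 11 were higher and 1 lower (27.7% and 17.8%). Genes that were wholly active could not go higher. State 5 took 14.5%, 7.41% and 1.26% of the body bins, beside 13.6%, 8.36% and 7.06% over the active genes. State 3 took 46.5%, 58.2% and 67.8%, beside 28.9%, 30.7% and 35.4%. SD 12m had the fewest and CR 12m the most H3K4me1 and H3K27ac libraries, and their part in these shares was not tested.

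Vnn1 had the widest difference in the body, with 51.9% of its 10.7 kb active in SD 3m and 100% in both 12-month groups. A quiescent stretch of 5.2 kb in SD 3m accounted for this. Cpt1a was active over 83.1%, 94.9% and 100% of its body. Its quiescent stretch measured 10.6 kb at 3 months and 3.2 kb in the older standard diet group. State 5 took 39.6%, 5.43% and 1.28% of the same body. Acads was active over 67.4%, 76.1% and 100%, and Hadha over 74.7%, 84.3% and 100%. Hadh was at 70.6%, 72.7% and 89.2%, and Ehhadh at 73.1%, 74.6% and 88.1%. In these 5 enzyme genes the order SD 3m, SD 12m, CR 12m held.

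At Acaa1b, Etfb and Acat1, too, only CR 12m was fully active. Acaa1b stood at 80.4%, 80.4% and 100%, Etfb at 87.0%, 87.0% and 100%, and Acat1 at 88.7%, 82.7% and 100%. Besides Vnn1, the genes that were wholly active at 12 months on both diets only were Acadl (95.7% in SD 3m), Acadm (91.2%), Acaa2 (89.0%) and Eci2 (94.0%). Decr1 was at 91.5%, 85.8% and 97.2%. Etfdh was at 81.7%, 100% and 93.7%, which made it the only gene lower in CR 12m than in SD 12m. Etfa was at 75.2%, 60.0% and 83.1%, the lowest body share of any gene at 12 months. Cd36 was at 74.5%, 74.3% and 74.5%, with a quiescent stretch of about the same length (27.4, 27.6 and 27.4 kb) in every group.

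**Figure D5:**
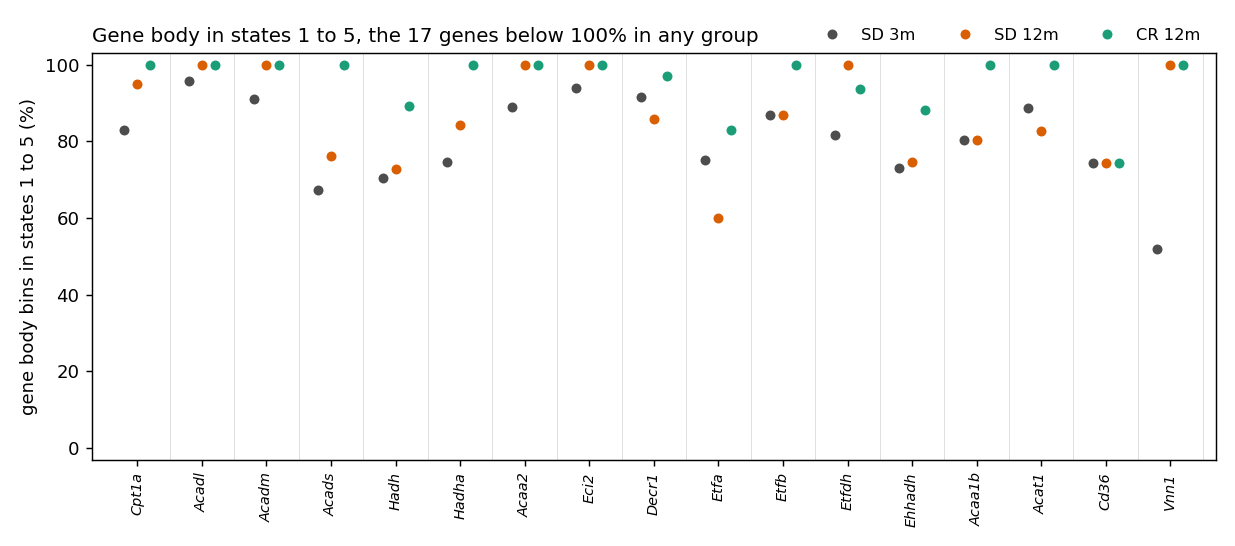
Percent of the gene body bins in states 1 to 5 (y axis) for the 17 genes that were below 100% in any group (x axis), with 1 point per group. CR 12m lies at or above SD 3m at every gene shown, Vnn1 runs from 51.9% to 100%, and Cd36 stays near 74.5%.

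A second list held 42 other genes of the same pathways. Their TSS bins were in state 1 or 2 at 29, 28 and 27 genes, and in states 6 to 8 at 3, 2 and 1. Over all protein-coding genes 45.2%, 39.3% and 34.7% had state 1 or 2, beside 69.0%, 66.7% and 64.3% of the list. The TSS state differed between SD 12m and SD 3m at 13 of 42 (31.0%), between CR 12m and SD 3m at 14 (33.3%) and between CR 12m and SD 12m at 17 (40.5%), beside 32.6%, 34.7% and 26.7% of all genes. The fatty acid hydroxylases Cyp4a10 and Cyp4a14 were in state 5, 3 and 3 and in state 3, 1 and 2.

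Acsl6, Cpt1b and Ppargc1a were the genes of the list with a TSS bin in states 6 to 8 in any group. Acsl6, an acyl-CoA synthetase of brain, was in state 6 in every group with 0% of its body active. Cpt1b, the muscle form of Cpt1a, was in state 8, 5 and 3, with 0%, 45.8% and 100% of its body active. Ppargc1a, a coactivator of Ppara that fasting induces, was in state 8, 8 and 4, with 53.7%, 59.5% and 91.9% active. Ppargc1a has 2 curated start sites, and the one read here is that of its longest transcript, which is non-coding. Its body did hold TSS states, with state 1 at 0.880%, 0.880% and 0.352% and state 2 at 1.76%, 1.41% and 1.58%. Oxct1, the enzyme that other tissues use to consume ketone bodies, is named here after its values were seen and had a TSS in state 1, 1 and 4 and 7.6%, 3.57% and 1.86% of its body active. Of these 4 genes, Cpt1b and Ppargc1a had their highest active share of the body in CR 12m, and Oxct1 its lowest. This order did not hold around the Oxct1 start. Within 2 kb of it, 0, 4 and 0 bins were in state 8, and none was in states 6 and 7.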

How the data were processed

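The authors aligned single-end reads to mm10 with BWA 0.6.2-r126, removed poorly mapped and duplicate reads with SAMtools 0.1.18, merged the reads of each group, and trained a ChromHMM model with 8 states on the 4 marks. The deposited values are state labels of 200-base bins and carry no signal, count or depth, so other units do not apply. All 3 segmentations cover 13168874 bins on 20 chromosomes. The labels include the merging, the threshold on reads and the smoothing of the model.

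States were read at the TSS and body of the longest curated RefSeq transcript (GRCm38.p6) in Python 3.11.15 with numpy 2.4.6, pandas 2.3.3, scipy 1.17.1 and matplotlib 3.10.9, and the counting was tested on simulated segmentations. Sequences are from RefSeq GRCm38.p6. Promoters of 36 genes with the same start in the RefSeq promoter table were identical to it. The others had no entry with the same start there and were not compared. With 1 segmentation per group no test was run, and the main counts are set beside background genes. The genes active in SD 3m were chosen on its own states, and the background active in all 21 bins was added after the data were seen. Some genes of the second list are not reported here. The 43 genes and the lists were chosen with earlier results of these data known. Described in full were 10 genes whatever they showed (Ppara, Cpt1a, Acadm, Hadha, Ehhadh, Acaa1b, Fgf21, Pdk4, Cd36 and Bdh1), those whose TSS bin crossed between state classes, and in each comparison the 5 genes with the largest differences.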

Additional observations from a re-analysis of the deposited data

How the results depend on the processing

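Of 75 alternatives over 18 results, 61 left the value within 1.5 times a count or within the 95% interval of a share. For shares of window bins this interval treats neighbouring bins as independent, which they are not, so it is too narrow. Of these 61, 34 concern measures at or near 0 or 100%, which could hardly move, and of the 39 alternatives on the other measures 27 left the value within these limits. Those 27 include the use of the most 5-prime curated start. It gave every gene of the set the same TSS state and left every value as it was, so it says little about stability. TSS bins that differed between SD 12m and SD 3m came to 10 with the most frequent state of 3 bins and to 3 without the Acaa1 and Acot paralogs, instead of 6. With 6 classes of states, 9 genes differed between CR 12m and SD 3m and 7 between CR 12m and SD 12m, instead of 14 and 11. Background shares were not computed for the rule of 3 bins or for the 6 classes. States 1 and 2 covered 69.6%, 58.8% and 53.5% within 1 kb and 34.9%, 24.3% and 20.6% within 5 kb for SD 3m, SD 12m and CR 12m in this order. Their shares in the 12-month groups were 44.0% (standard diet) and 37.3% (restriction) without the 5 genes that start within 1 kb of another gene. Within 5 kb, active states covered 98.8% (SD 3m) and 99.3% (CR 12m) instead of 100%. The order of the groups in states 1 and 2 was the same in each window. The cause of these differences was not tested, except that a wider window holds more bins far from the start. The alternatives on the whole gene body were added after the data were seen. No paired analysis was possible because each group has 1 segmentation of merged mice, and read depth, which is unknown, limits what a missing state means.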

Other observations

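Within 2 kb of the start, bins that differed were found at 42 of the 43 genes. The share of genes with no differing bin was 2.33%, near the 1.74% of the active protein-coding genes. In this window Cd36 had no differing bin among the 3 groups, Plin5 had none between the standard diet groups, and Fgf21 and Acadvl had none between the 12-month groups. The median gene of the set differed in 6 of 21 bins between SD 12m and SD 3m, in 6 between CR 12m and SD 3m and in 4 between CR 12m and SD 12m, beside 8, 9 and 5 for the active protein-coding genes.

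Repeated sequence was present around some of the starts. The share of 50-base words within 2 kb that occurred elsewhere in the genome was 23.3% at Acot4, 21.2% at Eci1, 15.0% at Creb3l3, 13.7% at Acot1 and 10.9% at Echs1, and 0% at Ppara, Cpt1a, Cd36, Acsl5 and Pnpla2. The part of such words in the states was not tested.

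Slc27a4, a fatty acid transport protein outside the 43 genes and chosen here after its values were seen, had state 1 at the TSS in all groups with 18.7%, 78.7% and 100% of its body in states 1 to 5 in SD 3m, SD 12m and CR 12m. Acad9, an acyl-CoA dehydrogenase also chosen after its values were seen, had 32.4%, 63.2% and 86.8%.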
